A study of Mus musculus with 10 samples.

Results

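The 8 genes described here, Pdgfd, Cfap300, Arhgap42, Mre11a, Fat3, Dnmt1, S1pr2 and Kank2, lie on mouse chromosome 9 within 100 gene places of Casp1 and were taken up because their signals were shifted in Casp1-/- fat. A gene place is counted here among the genes that the array measured, in the order of the GRCm38.p6 annotation. The 8 genes were read by 12 probe sets that the annotation of the array pairs with exactly 1 of these symbols, among 45037 probe sets and 17097 genes in all. All 8 lie on 1 side of Casp1, at places 3 (Pdgfd), 20 (Cfap300), 25 (Arhgap42), 39 (Mre11a), 50 (Fat3), 69 (Dnmt1), 70 (S1pr2) and 91 (Kank2), and on the other side only 7 measured genes precede Casp1 on the chromosome. The difference between Casp1-/- and WT chose them, so it is only described, and where the fit of all probe sets called a member in it, that call is part of how the genes were chosen and supports nothing. The difference between ASC-/- and WT took no part in the choice and was tested.

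The tissue was epididymal white fat, a visceral depot of male mice that ate a diet rich in fat (45 energy%) over 16 weeks, begun at an age of 8 to 12 weeks. The groups were ASC-/- mice (n = 3), which lack the inflammasome adaptor ASC (gene Pycard, also labelled ASC1 null), Casp1-/- mice (n = 3), which lack caspase-1, and wild-type (WT) mice (n = 4), all on a C57/Bl6 background and all on the same diet. One Affymetrix HT_MG-430 PM array was hybridised per mouse, and each value is an RMA signal on the log2 scale, as the authors deposited it. The strain whose stem cells carried the Casp1 mutation and the number of backcrosses are not given in the sources used here, and the arrays hold no genotypes.

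Genes on 1 chromosome are inherited together unless recombination parts them. When a gene is disrupted in stem cells of 1 mouse strain and the mutation is then crossed into another, DNA of the first strain around the target stays linked to it, and neighbouring genes can carry alleles of the donor strain. For that reason neighbours of a disrupted gene are usually read by their position as well as by their function. Whether such DNA surrounds Casp1 in these mice was not tested.

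The 8 genes have unrelated functions. Pdgfd encodes a platelet-derived growth factor that is secreted in a latent form and, once cut, acts on the beta receptor of stromal and mural cells. S1pr2 encodes a receptor for the lipid sphingosine-1-phosphate, and Arhgap42 encodes a GTPase-activating protein best known from vascular smooth muscle. Kank2 is an adaptor that binds talin at the rim of focal adhesions, and Fat3 is a giant atypical cadherin known mainly from neurons. Mre11a encodes the nuclease of the MRE11-RAD50-NBS1 complex at DNA breaks, Dnmt1 the methyltransferase that copies DNA methylation onto new strands, and Cfap300 a protein needed to assemble the dynein arms of motile cilia.

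Reference sequence before the transcription start is shown for 4 of the genes, because they stand for the patterns described below. Pdgfd was lower in Casp1-/- fat against every WT array, Cfap300 and Arhgap42 were higher, and S1pr2 was lower by an amount that differed among the WT arrays. All 8 genes matched the RefSeq promoter table (GRCm38.p6, the C57BL/6J reference), and the bases are those of the reference, not of these mice. Each run reads 5′ to 3′ and covers up to 250 bases before the start, ending where the first annotated transcript begins. Capitals mark the TATA box (TATAAA), the CCAAT box (CCAAT), the GC box (GGGCGG), the cyclic AMP response element (TGACGTCA), the E2F motifs TTTCGCGC and TTTGGCGC and the PU.1 motif GAGGAAGT, each searched on both strands.
Pdgfd, chr9:6168236-6168362, + strand: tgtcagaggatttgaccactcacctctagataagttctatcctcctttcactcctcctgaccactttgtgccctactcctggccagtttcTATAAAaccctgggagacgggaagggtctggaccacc
Cfap300, chr9:8042876-8043125, - strand: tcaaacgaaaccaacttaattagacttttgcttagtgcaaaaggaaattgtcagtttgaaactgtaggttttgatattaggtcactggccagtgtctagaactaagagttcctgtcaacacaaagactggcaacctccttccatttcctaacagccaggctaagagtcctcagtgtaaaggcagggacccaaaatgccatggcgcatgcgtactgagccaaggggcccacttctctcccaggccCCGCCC
Arhgap42, chr9:9239028-9239277, - strand: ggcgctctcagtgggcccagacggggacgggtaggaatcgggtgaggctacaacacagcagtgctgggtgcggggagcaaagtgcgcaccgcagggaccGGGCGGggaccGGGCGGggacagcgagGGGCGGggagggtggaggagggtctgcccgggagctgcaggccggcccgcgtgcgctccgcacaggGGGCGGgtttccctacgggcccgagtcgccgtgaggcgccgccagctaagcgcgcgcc
S1pr2, chr9:20976794-20977043, - strand: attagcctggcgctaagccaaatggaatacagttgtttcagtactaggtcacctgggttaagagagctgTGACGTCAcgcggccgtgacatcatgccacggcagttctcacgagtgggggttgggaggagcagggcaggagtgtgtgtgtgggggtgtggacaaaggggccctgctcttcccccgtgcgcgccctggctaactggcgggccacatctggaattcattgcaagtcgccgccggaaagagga

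The Pdgfd sequence holds a TATA box, a motif found in 12.4% of the 32851 promoters of this length, and 3 CpG dinucleotides lie in the 250 bases before its listed start. The Arhgap42 sequence holds 4 GC boxes (1 or more in 32.7% of promoters) and 29 CpG dinucleotides, against a median of 6 over all promoters. The Cfap300 sequence ends in a GC box, and that of S1pr2 holds the full cyclic AMP response element, found in 1.55% of promoters. Among the 8 genes the E2F motif TTTCGCGC occurred before 1 of the 3 listed starts of Dnmt1, and it occurs in 0.256% of all promoters. These matches describe the letters of the reference and carry no measurement of binding.

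The targeted gene and the state of the arrays were checked first. Casp1 read 4.86, 4.98 and 4.69 in Casp1-/- fat and averaged 9.36 ± 0.095 in ASC-/- fat (SD, n = 3), against 8.71, 9.09, 9.99 and 9.49 in WT fat, so the label of the Casp1-/- arrays holds. Casp4 (caspase-11), which senses lipopolysaccharide inside cells and lies next to Casp1, averaged 6.45 ± 0.18 in Casp1-/- fat (SD, n = 3) and 8.02 ± 0.30 in WT fat (SD, n = 4). The 23 control probe sets meant to bind nothing had array medians of 2.91 to 3.15 and single values of 2.63 to 5.01, so the size of a change is uncertain for a mean below 5.01. Adipocyte markers averaged 10.97 to 11.28 on the ASC-/- arrays, 11.58 to 11.67 on the Casp1-/- arrays and 10.53 to 11.43 on the WT arrays. The mean of 16 macrophage markers was 10.09 to 10.47 in ASC-/-, 8.89 to 9.11 in Casp1-/- and 9.55 to 10.84 in WT fat. The mean of 11 proliferation markers was 7.56 to 7.99 in ASC-/-, 6.36 to 6.52 in Casp1-/- and 7.21 to 8.34 in WT fat. The poly-A spike-in controls divided the arrays into a set with high signal, made of the 3 Casp1-/- arrays and WT replicate 1 (7.51 to 8.07), and a set with low signal (5.76 to 6.50), which held the other arrays. WT replicate 1 also had the lowest macrophage and proliferation means of the WT arrays. The 3′ minus 5′ signal of actin, a sign of RNA quality, was 0.543 to 0.667 in ASC-/-, 0.815 to 0.984 in Casp1-/- and 0.459 to 1.05 in WT fat. Smooth muscle and pericyte markers averaged 7.75 to 8.92 in ASC-/-, 7.93 to 8.41 in Casp1-/- and 7.49 to 9.70 in WT fat. Endothelial markers averaged 7.87 to 8.31 in ASC-/-, 8.01 to 8.76 in Casp1-/- and 7.68 to 8.14 in WT fat. In Casp1-/- fat 11 of the 12 endothelial markers lay above WT, with a median difference of 0.50 beside 0.041 over all genes. Of the 9 smooth muscle and pericyte markers 5 lay above WT (median 0.29). In both lists 0 markers were past limma's threshold, beside 6.7% of all genes. Progenitor and fibroblast markers averaged 9.36 to 9.49 in ASC-/-, 9.02 to 9.26 in Casp1-/- and 9.17 to 9.74 in WT fat, and in Casp1-/- fat 8 of 11 lay below WT with 0 past limma's threshold. Lymphocyte markers averaged 4.08 to 4.31 in ASC-/-, 4.40 to 4.51 in Casp1-/- and 4.359 to 4.593 in WT fat. Markers of the epididymis averaged 3.51 to 4.31 in ASC-/-, 3.57 to 5.39 in Casp1-/- and 3.44 to 4.85 in WT fat. The part of RNA quality and of these cell types in the results below was not tested.

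In Casp1-/- fat, 5 of the 8 genes read lower than in WT fat (Pdgfd, Mre11a, Fat3, Dnmt1 and S1pr2) and 3 read higher (Cfap300, Arhgap42 and Kank2), each by its strongest probe set. No array overlapped between Casp1-/- and WT for any of these 8 probe sets, while 24.7% of all genes were without overlap (15.1% higher and 9.6% lower). Over all 12 probe sets, 8 were without overlap (20.3% of all probe sets) and 5 had an adjusted p under 0.05 in limma's fit of all probe sets (4.86% of all probe sets). Those 5 were Cfap300, Arhgap42 and Kank2, higher (2.34% of all), and Pdgfd and Fat3, lower (2.52% of all). The genes were chosen from this very contrast, so nothing is read from these counts. With 1 probe set per gene all 8 passed, together with Casp1, Casp4, Angptl8, Mmp12 and Mmp3. In that fit 1397 of all 17097 genes passed, and nothing is read from the count of 8 either. Mre11a lay just inside the threshold of that fit, at 6.86 ± 0.13 in Casp1-/- fat (SD, n = 3) and 7.21 ± 0.12 in WT fat (SD, n = 4). Ccdc151, the next gene outside it, was 3.99 ± 0.28 in Casp1-/- fat (SD, n = 3) and 3.55 ± 0.11 in WT fat (SD, n = 4). In whole tissue, fewer cells of a type and less RNA per cell cannot be told apart.

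**Figure D1:**
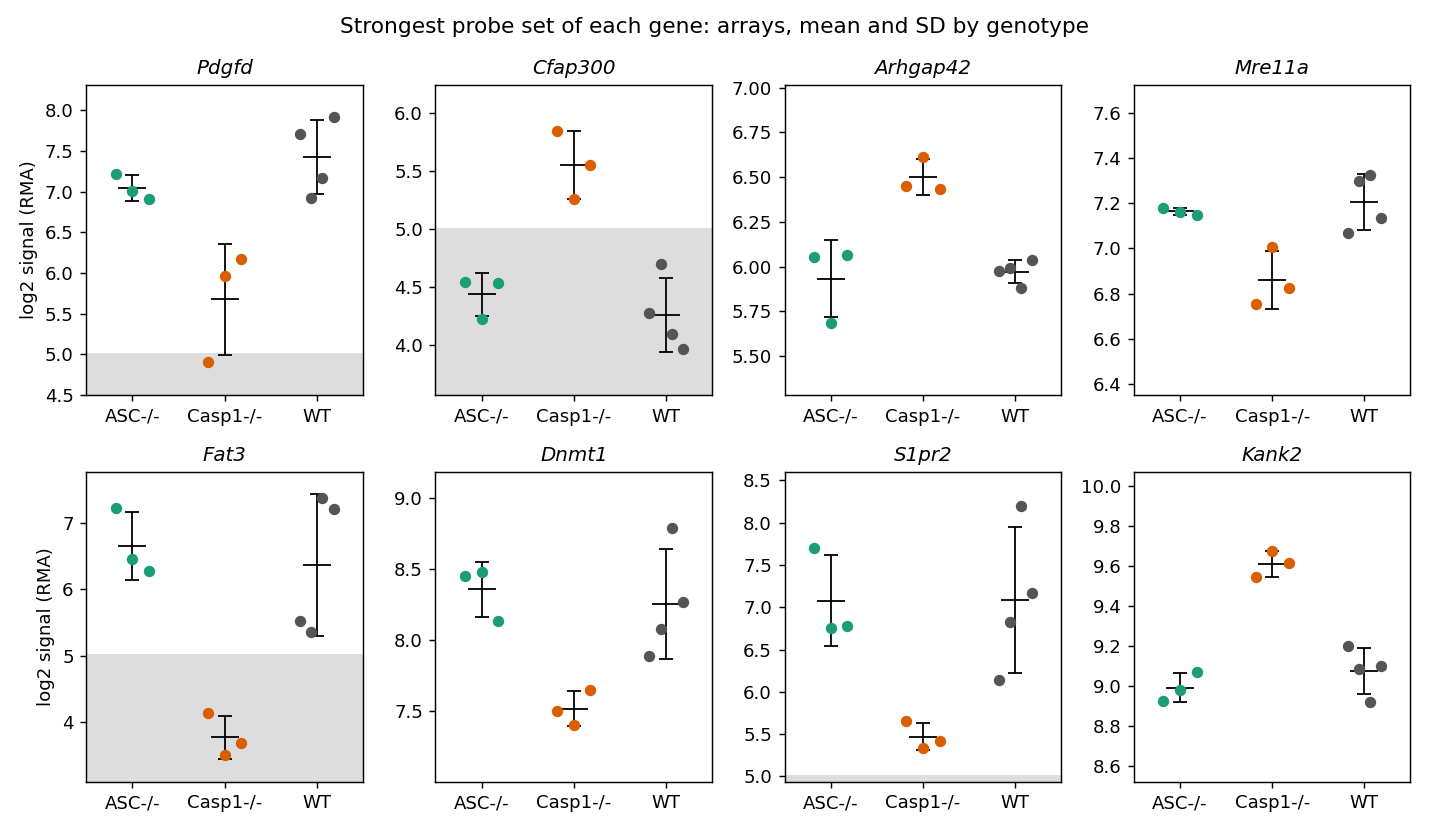
Log2 signal of the strongest probe set of each of the 8 genes on every array, by genotype (ASC-/-, Casp1-/-, WT); points are arrays, the bar with whiskers is the mean and SD, and grey marks signals up to 5.01, the highest value of the background controls. The Casp1-/- points lie apart from the WT points in all 8 panels, and the ASC-/- points overlap the WT points in all 8.

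Pdgfd, the growth factor gene closest to Casp1, read 4.90, 5.96 and 6.17 in Casp1-/- fat. It read 7.22, 7.01 and 6.91 in ASC-/- fat and 7.71, 6.93, 7.16 and 7.91 in WT fat. All 3 Casp1-/- arrays lay below every other array, replicate 1 by the widest margin, and the mean was 3.37-fold lower than in WT (log2 difference -1.75). Its second probe set gave 3.70, 3.90 and 4.25 in Casp1-/- fat, against 4.91, 3.88, 4.44 and 5.31 in WT fat. These values overlap and, apart from WT replicate 4, stay below the highest background control, with a difference of -0.69 in the same direction. Of the genes next to Pdgfd, neither was past the threshold. Casp12, a caspase gene between Casp4 and Pdgfd, averaged 8.81 ± 0.038 in Casp1-/- fat (SD, n = 3) and 8.62 ± 0.27 in WT fat (SD, n = 4), and Ddi1 lay in the range of the controls in both.

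Cfap300, the cilia gene, read 5.85, 5.26 and 5.56 in Casp1-/- fat. It read 4.55, 4.23 and 4.54 in ASC-/- fat and 4.28, 4.70, 4.10 and 3.97 in WT fat. Only the Casp1-/- arrays were above the highest background control, and the difference from WT was 1.30 on the log2 scale, a size that is uncertain because the WT mean lay within the control range. Arhgap42, the GTPase-activating protein gene, read 6.45, 6.62 and 6.43 in Casp1-/- fat. It read 6.05, 5.68 and 6.06 in ASC-/- fat and 5.98, 5.99, 5.88 and 6.04 in WT fat. The Casp1-/- mean was 1.44-fold above WT, where the 4 arrays differed by little (SD 0.066). The weaker probe set of Arhgap42 stayed within the control range in every group, at 3.49 ± 0.099 in Casp1-/- fat (SD, n = 3) and 3.50 ± 0.058 in WT fat (SD, n = 4). The strongest probe set alone therefore carries the Arhgap42 value. Beside Cfap300, Yap1, the effector of Hippo signalling at place 19, was 9.97 ± 0.038 in Casp1-/- fat (SD, n = 3) and 9.39 ± 0.39 in WT fat (SD, n = 4). Its arrays were without overlap, as were those of 24.7% of all genes.

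Kank2, the talin adaptor, read 9.54, 9.67 and 9.61 in Casp1-/- fat. It read 8.92, 8.98 and 9.07 in ASC-/- fat and 9.20, 9.08, 8.92 and 9.10 in WT fat. The Casp1-/- mean was 1.45-fold above WT. The second Kank2 probe set gave 6.73, 6.99 and 6.75 in Casp1-/- fat, against 6.47, 6.70, 6.42 and 6.78 in WT fat, so it pointed the same way (0.23 on the log2 scale) with overlap. Angptl8, 2 places further on, encodes an insulin-induced secreted protein that takes part in the control of lipoprotein lipase. It had the largest rise of the window genes past the threshold, to 8.96 ± 0.31 in Casp1-/- fat (SD, n = 3), against 6.97 ± 0.45 in WT fat (SD, n = 4, limma adjusted p = 0.00901).

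Fat3, the atypical cadherin, read 4.13, 3.50 and 3.69 in Casp1-/- fat. It read 7.23, 6.45 and 6.28 in ASC-/- fat and 5.52, 5.36, 7.37 and 7.20 in WT fat. The Casp1-/- signals were no brighter than background controls, and the WT arrays themselves formed a low and a high pair. The log2 difference from WT was -2.59, the largest of the 8. S1pr2, the sphingosine-1-phosphate receptor, read 5.65, 5.34 and 5.42 in Casp1-/- fat. It read 7.70, 6.76 and 6.78 in ASC-/- fat and 6.14, 6.83, 8.20 and 7.17 in WT fat. WT replicate 1 stood closest to the Casp1-/- arrays and WT replicate 3 farthest from them, and the mean was 3.06-fold lower than in WT.

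Dnmt1, the maintenance methyltransferase and direct neighbour of S1pr2, read 7.50, 7.40 and 7.65 in Casp1-/- fat. It read 8.45, 8.48 and 8.13 in ASC-/- fat and 7.89, 8.08, 8.79 and 8.27 in WT fat. The mean was 1.67-fold lower than in WT, and the order of the WT arrays at its ends was that of S1pr2, with replicate 1 lowest and replicate 3 highest. Mre11a, the nuclease gene, read 6.75, 7.004 and 6.83 in Casp1-/- fat. It read 7.18, 7.16 and 7.15 in ASC-/- fat and 7.07, 7.30, 7.32 and 7.13 in WT fat. This was the smallest shift of the 8, 1.27-fold, and the highest Casp1-/- array lay close to the lowest WT array. The second Mre11a probe set stayed within the control range in all groups (difference -0.14).

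Within the WT group, the SD of the strongest probe sets ran from 0.066 for Arhgap42 to 1.07 for Fat3. To see how much each difference rests on the choice of WT array, the Casp1-/- mean was set against WT replicate 1, the only WT array with high spike-in signal, and against WT replicates 2 to 4. For Cfap300 the differences were 1.28 and 1.30, and for Arhgap42 0.52 and 0.53. For Pdgfd they were -2.03 and -1.66, and for Kank2 0.41 and 0.58. Cfap300, Arhgap42 and Pdgfd thus differed from WT replicate 1 by as much or nearly as much as from the other WT arrays, and Kank2 by somewhat less. The other 4 genes gave smaller differences against WT replicate 1. S1pr2 gave -0.67 and -1.93, Fat3 -1.75 and -2.87, Dnmt1 -0.38 and -0.86, and Mre11a -0.21 and -0.39. A single array has no spread of its own, so these pairs are a description. With the spike-in set as a block, where the Casp1-/- contrast rests on WT replicate 1, 0 of the 12 probe sets were past the threshold in limma. Of all 45037 probe sets 216 were past it there, so a count of 0 in 12 says nothing particular about these genes.

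**Figure D2:**
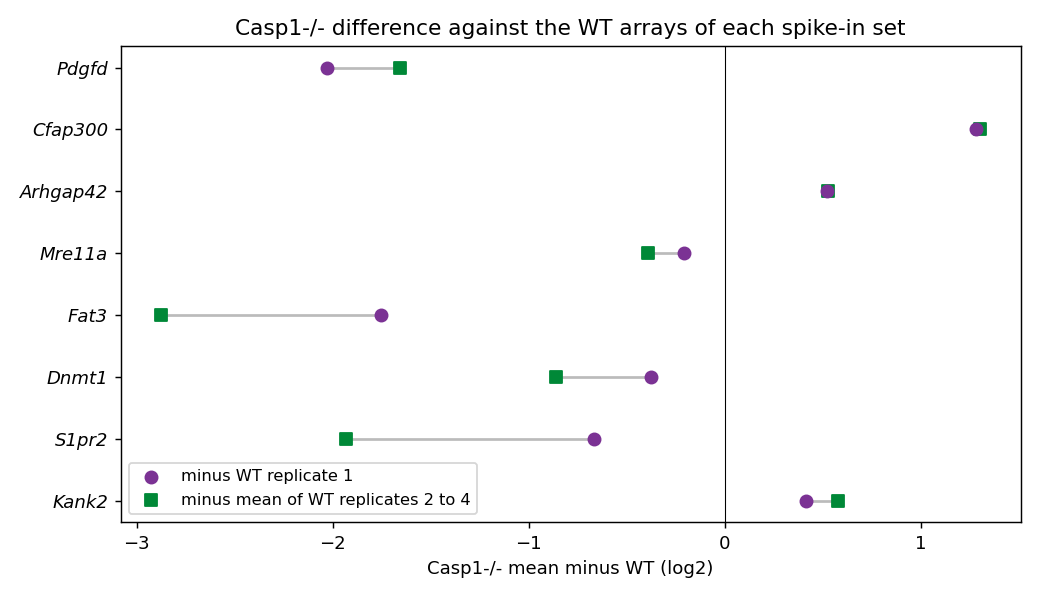
Casp1-/- mean minus WT on the log2 scale for the strongest probe set of each gene, against WT replicate 1 (circles, high spike-in signal) and against the mean of WT replicates 2 to 4 (squares, low spike-in signal). The 2 marks nearly coincide for Cfap300 and Arhgap42 and lie farthest apart for S1pr2 (-0.67 and -1.93) and Fat3 (-1.75 and -2.87).

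The macrophage and proliferation markers also differed among the arrays, so each gene was set against both marker means over the 7 ASC-/- and WT arrays, without the Casp1-/- arrays. These 16 relations were taken up after the values had been seen, and the 4 WT arrays had taken part in choosing the genes, so the correlations are a description and carry no p-value. Fat3 and the macrophage mean had r = 0.921 (Spearman's rho = 0.929), and r was 0.98 without the 2 arrays farthest from the median of the marker mean. S1pr2 and the macrophage mean had r = 0.94 (rho = 0.821), with r = 0.772 without those 2 arrays. Dnmt1 had r = 0.952 with the proliferation mean (rho = 0.964) and 0.855 after the same step. With the macrophage mean Dnmt1 had r = 0.908 (rho = 0.857), and 0.647 without 2 arrays. S1pr2 and the proliferation mean had r = 0.879 (rho = 0.643) and 0.457 without 2 arrays, so that value rests largely on them. For Fat3 and the proliferation mean, r was 0.752 (rho = 0.786), and 0.523 without 2 arrays.

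Kank2 ran the opposite way, with r = -0.871 against the proliferation mean (rho = -0.821) and -0.592 without 2 arrays. Against the macrophage mean it had r = -0.807 (rho = -0.643) and -0.379 without 2 arrays. For Pdgfd, Cfap300, Arhgap42 and Mre11a, r against the macrophage mean was -0.0504, -0.419, -0.0971 and 0.521. Without 2 arrays these 4 values were 0.776, -0.629, 0.17 and -0.679. The sign thus changed for Pdgfd, Arhgap42 and Mre11a and stayed negative for Cfap300 (rho = -0.607). Against the proliferation mean, r for Pdgfd, Cfap300, Arhgap42 and Mre11a was -0.246, -0.329, -0.382 and 0.69. Without 2 arrays it was 0.396, -0.487, -0.525 and -0.17. With 7 arrays no relation of these 4 genes is excluded. Over the 6 arrays with low spike-in signal, r against the macrophage mean was 0.918 for Fat3 and 0.907 for S1pr2. On those arrays r against the proliferation mean was 0.946 for Dnmt1 and -0.742 for Kank2. Of the 16 macrophage markers 9 were past limma's threshold and lower in Casp1-/- fat (median -1.36), and of the 11 proliferation markers 9 (median -1.40). Of all genes 3.22% were past it and lower, and the median over all genes was 0.041. The part of these markers in the differences of Fat3, S1pr2, Dnmt1 and Kank2 was not tested.

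**Figure D3:**
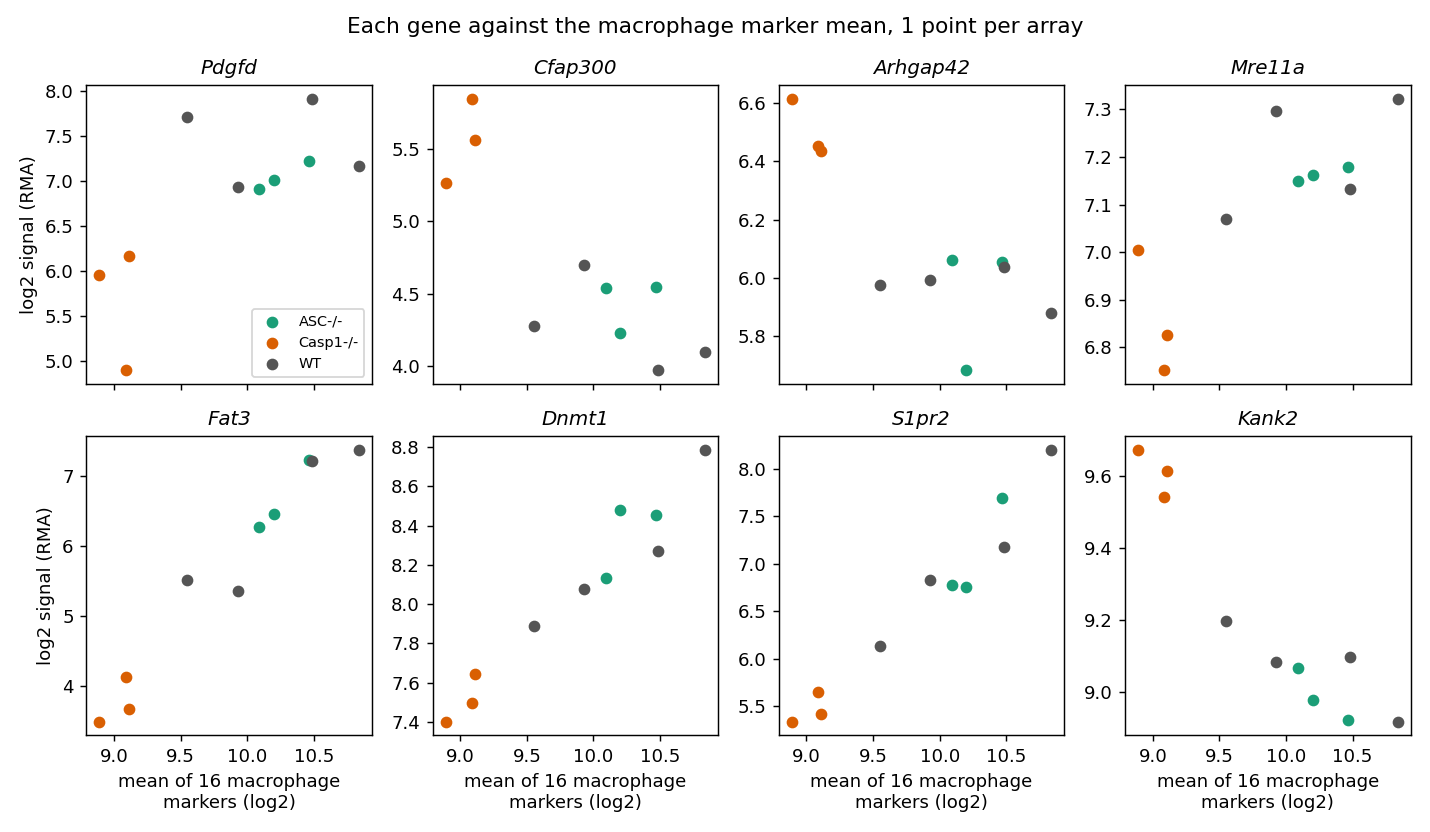
Log2 signal of the strongest probe set of each gene (vertical axis) against the mean log2 signal of 16 macrophage markers (horizontal axis), 1 point per array, coloured by genotype. Over the 7 ASC-/- and WT points, r with the macrophage mean is 0.921 for Fat3 and 0.94 for S1pr2, and -0.0504 for Pdgfd and -0.0971 for Arhgap42.

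In ASC-/- fat no difference from WT passed the test for any of these genes. Of the 12 probe sets 0 were past the threshold in limma (0.0244% of all probe sets were), and 0 had an unadjusted p under 0.05 (2.32% of all did). All 12 overlapped between ASC-/- and WT arrays, where 3.82% of all probe sets did not. With shares this low over all probe sets, counts of 0 in 12 say nothing particular about these genes. The strongest probe sets differed by -0.38 ± 0.31 for Pdgfd, 0.18 ± 0.19 for Cfap300, -0.039 ± 0.10 for Arhgap42 and -0.042 ± 0.091 for Mre11a (SE, each with an adjusted p of 1.0). They differed by 0.29 ± 0.50 for Fat3, 0.10 ± 0.19 for Dnmt1, -0.0079 ± 0.42 for S1pr2 and -0.084 ± 0.084 for Kank2 (SE, each with an adjusted p of 1.0). A missed threshold does not show equal levels, and the width of the 95% intervals differed among the genes. For Cfap300 the interval ran from -0.24 to 0.60 beside a Casp1-/- difference of 1.30, for Arhgap42 from -0.27 to 0.20 beside 0.53, and for Kank2 from -0.27 to 0.10 beside 0.54. For Pdgfd it ran from -1.08 to 0.32 beside -1.75, for S1pr2 from -0.94 to 0.92 beside -1.62, and for Fat3 from -0.83 to 1.40 beside -2.59. For Dnmt1 it ran from -0.32 to 0.53 beside -0.74, and for Mre11a from -0.25 to 0.16 beside -0.34. Both differences are taken from the same 4 WT arrays, so they are set side by side and not compared by a test.

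Set directly against the ASC-/- arrays, the Casp1-/- arrays did not overlap for the strongest probe set of any of the 8 genes. The same Casp1-/- arrays had chosen the genes, and the share of all genes without overlap was not counted for this comparison. Nothing is therefore read from that count. The Casp1-/- minus ASC-/- differences were -1.37 for Pdgfd, 1.12 for Cfap300, 0.57 for Arhgap42 and 0.62 for Kank2. They were -2.88 for Fat3, -1.61 for S1pr2, -0.84 for Dnmt1 and -0.30 for Mre11a. For each gene the ASC-/- and WT means were thus adjacent in the order of the 3 genotypes and did not differ beyond their spread, with Casp1-/- at one end. This order follows in part from how the genes were chosen.

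The window around Casp1 was then read as a whole. Of its 108 measured genes, 10 were past the threshold in Casp1-/- fat, 4 higher and 6 lower, or 9.26%, beside 6.7% of all genes (3.48% higher and 3.22% lower). Apart from Casp1 and the 8 genes described, 4 of 99 window genes passed (4.04%), namely Casp4, Mmp12, Mmp3 and Angptl8. Those 8 were chosen by this same contrast, so taking them out lowers the share left, and it is not set against all genes. Mmp12, the macrophage elastase, averaged 10.21 ± 0.99 in Casp1-/- fat (SD, n = 3) and 12.72 ± 0.69 in WT fat (SD, n = 4, limma adjusted p = 0.0228). Mmp3, the protease stromelysin, averaged 4.03 ± 0.46 in Casp1-/- fat (SD, n = 3) and 7.22 ± 1.38 in WT fat (SD, n = 4, limma adjusted p = 0.0237). Counted in blocks of 50 genes, 14% of the genes at places 1 to 50 passed and 4% of those at places 51 to 100. These shares include genes chosen by this contrast, namely Pdgfd, Cfap300, Arhgap42 and Fat3 in the first block and Kank2 in the second. Further along chromosome 9 the blocks ranged from 2% to 16%, the highest at places 451 to 500, and 5.82% of the 842 genes beyond the window passed. The block at places 451 to 500 was the only one with a larger share than places 1 to 50. In ASC-/- fat, 0 of the 108 window genes passed by limma, beside 0.0351% of all genes.

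The direct neighbours of the 8 genes on the chromosome were read next. There are 14 that are not among the 8 themselves, and of these 0 were past limma's threshold in Casp1-/- fat, beside 6.7% of all genes. Their differences ran from -0.53 for Spc24 to 0.58 for Yap1, and 1 (Yap1) was without overlap, beside 24.7% of all genes. Beside the share past the threshold, a count of 0 in 14 does not set the neighbours apart from other genes. Nothing is read from the 1 without overlap. Ddi1, Cep126, Pgr, Cntn5, 1700012B09Rik, Izumo1r and Deup1 had means within the control range in both genotypes. The size of any change is uncertain there, and a fall could have been missed. Chordc1, a cochaperone gene beside Fat3, was clearly measured, at 8.95 ± 0.027 in Casp1-/- fat (SD, n = 3) and 8.89 ± 0.077 in WT fat (SD, n = 4). Mrpl4, a gene of the mitochondrial ribosome beside S1pr2, was 8.70 ± 0.11 in Casp1-/- fat (SD, n = 3) and 8.71 ± 0.074 in WT fat (SD, n = 4). The pair Dnmt1 and S1pr2 were the only direct neighbours among the 8.

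**Figure D4:**
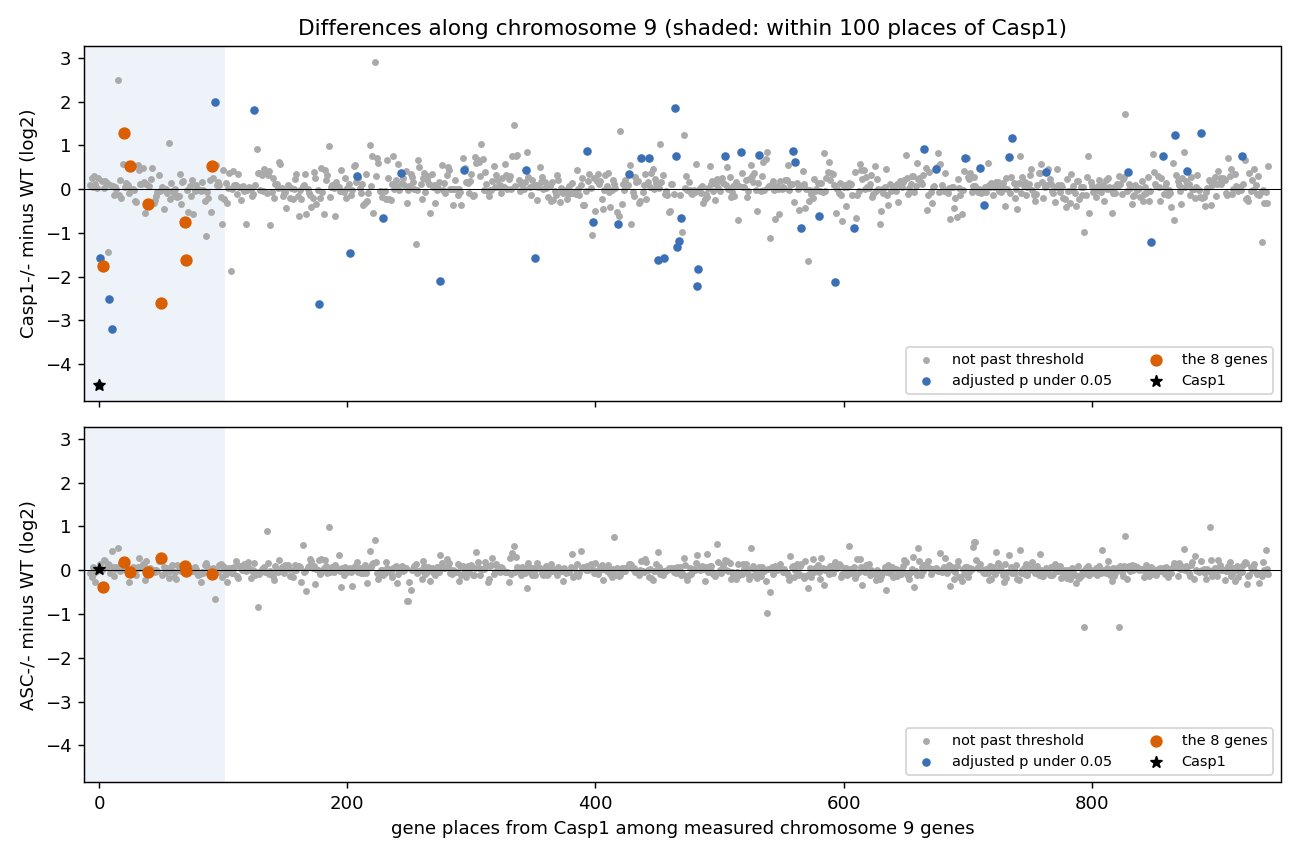
Difference from WT on the log2 scale (vertical axis) of every measured chromosome 9 gene by its number of gene places from Casp1 (horizontal axis), for Casp1-/- above and ASC-/- below; orange marks the 8 genes, blue other genes with an adjusted p under 0.05 and the star Casp1. Genes past the threshold in Casp1-/- fat are found along the whole chromosome, and in ASC-/- fat none is past it on this chromosome.

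Partners of the 8 genes in their own pathways were read from lists of related genes, whatever their chromosome. The lists were not chosen by position, and S1pr5 of the sphingosine-1-phosphate list lies in the window itself, at place 79. Over all genes 3.48% were past limma's threshold and higher in Casp1-/- fat, and 3.22% were past it and lower. The lists are short and were not tested as sets, so their counts are a description. In the platelet-derived growth factor list, 1 of 7 measured genes rose and 1 fell in Casp1-/- fat (median -0.29). Pdgfc, a sister ligand of Pdgfd, rose 1.82-fold (limma adjusted p = 0.00612), and Plau, the urokinase that can activate the Pdgfd protein, fell 2.99-fold (limma adjusted p = 0.0177). Of 12 genes for sphingosine-1-phosphate receptors, enzymes and transporters, 1 fell and 0 rose by limma (median 0.041). This was Sphk2, a kinase that makes the lipid, 1.32-fold lower (limma adjusted p = 0.0258). Of 11 genes of DNA break repair, 2 fell and 0 rose (median 0.11). Brca1, which directs repair by homologous recombination, fell to 4.93 ± 0.53 in Casp1-/- fat (SD, n = 3), within the control range, against 6.62 ± 0.27 in WT fat (SD, n = 4, limma adjusted p = 0.011), and the histone gene H2ax fell 1.59-fold (limma adjusted p = 0.0308).

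Of 9 genes for the assembly or parts of dynein arms, 2 rose and 0 fell in Casp1-/- fat (median 0.20). Cfap298 rose 1.45-fold (limma adjusted p = 0.0385), and Dnaaf4 was 4.33 ± 0.12 in Casp1-/- fat (SD, n = 3) and 3.57 ± 0.11 in WT fat (SD, n = 4, limma adjusted p = 0.0213), within the control range. Of 12 genes of the Kank and talin list 1 rose and 0 fell (median 0.18), namely Erc1, a scaffold of the cell cortex (1.77-fold, limma adjusted p = 0.0423). None of the 12 genes of DNA methylation (median -0.23) or the 7 of the Fat and Dachsous cadherins (median 0.31) passed limma's threshold. The median over all genes was 0.041, and 3.48% of all genes rose and 3.22% fell past the threshold. In ASC-/- fat 0 genes of these 7 lists passed by limma, beside 0.0351% of all genes. The medians there were 0.0061 to 0.11 beside 0.0050 over all genes.

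The genes whose signals ran most like each of the 8 over all 10 arrays were found by Pearson's r, as a description that includes the shift between genotypes. Fat3 was most like Pkib and Plau (r = 0.992 for each), S1pr2 most like Arf6 (r = 0.996) and Clec4d (r = 0.993), and Dnmt1 most like Tusc1 (r = 0.992) and the replication gene Mcm4 (r = 0.991). Kank2 was most like Angptl8 (r = 0.991), its neighbour 2 places on, and Gde1 (r = 0.989). Cfap300 was most like Wdr12 and Fam161a (r = 0.974 for each), Mre11a most like Pld4 (r = 0.976) and Gmfg (r = 0.957). Arhgap42 was most like Zbtb4 (r = 0.959) and Cpeb2 (r = 0.948), and Pdgfd most like Klhl24 (r = 0.94) and Zmynd8 (r = 0.926). Angptl8 is the only one of these 16 genes with a place on chromosome 9.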

How the data were processed

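RNA of 10 mice was read on 1 Affymetrix HT_MG-430 PM array each. The authors deposited log2 values, and the submitters' processing notes name RMA, without a version. RMA subtracts background, gives all arrays 1 distribution and summarises probes, which compresses small changes near background. Precision is set by the number of arrays, and p-values measure the spread between mice as labelled.

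Of 45141 probe sets, 104 controls were left out, and 28898 carried 1 gene symbol, 551 several and 15588 none. The strongest probe set of a gene is that with the highest mean over all arrays. limma 3.58.1 (R 4.3.3) fitted all 45037 probe sets with a mean for each genotype, and its eBayes function, at default settings, added 2.85 prior to 7 residual degrees of freedom. Tests were two-sided, with Benjamini-Hochberg adjustment over all probe sets and a threshold of 0.05. The fit was tested on simulated data. The GRCm38.p6 gene table served for gene order, and its coordinates are given for promoter sequence only.

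The genes and lists were chosen with earlier results of these data known. Named genes are the 8, Casp1 and Casp4, the 4 largest called window genes, up to 3 called genes per pathway list, direct neighbours and the 2 most similar genes each. Yap1, Chordc1, Mrpl4 and Casp12 were picked among neighbours, and Ccdc151 at the limit, after their values were seen. The alternatives were quantile normalization, median centring, leaving out the dimmest 25% of probe sets, 1 probe set per gene, a trended and robust step, compared genotypes only, the replicate number or the spike-in set as a block, leaving out each array, and windows of 20 or 50 places. Correlations over the 6 low spike-in arrays were added after seeing the data. One of the gene lists is not reported here.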

Additional observations from a re-analysis of the deposited data

How the results depend on the processing

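The Casp1-/- minus WT difference of each of the 8 genes kept its sign under all 18 alternatives. This contrast chose the genes, and for their strongest probe sets no Casp1-/- array overlapped WT. Leaving out an array could therefore not have reversed a sign, and the kept signs support nothing. The number of the 12 probe sets past the threshold in that contrast was 5 in the fit reported. It moved to 8 with 1 probe set per gene (of 8), 3 with only the compared genotypes, and 0 with the spike-in set as a block. It ranged from 1 to 8 when arrays were left out, with 8 without WT replicate 1, 1 without Casp1-/- replicate 2, and 2 without Casp1-/- replicate 1, Casp1-/- replicate 3 or WT replicate 4. The window count of 10 moved to 6 with only the compared genotypes, 2 with the spike-in block and 6 with 20 gene places, and ranged from 3 to 21 over arrays left out, with 21 without WT replicate 1, 3 without Casp1-/- replicate 2, and 5 without Casp1-/- replicate 1, Casp1-/- replicate 3 or WT replicate 4. Over all probe sets, 2189 passed in that contrast, from 18 to 5765 under the alternatives. The totals were 1397 with 1 probe set per gene, 525 with only the compared genotypes, 216 with the spike-in block and 18 with the replicate block. They were 5765 without WT replicate 1 and 515 without WT replicate 4. Without Casp1-/- replicates 1, 2 and 3 in turn they were 295, 79 and 309. Beside these totals, the moves of the counts above say nothing particular about the 8 genes. The cause of these moves was not tested. Same-numbered arrays share only a number: their deviations correlated at -0.261 to 0.158. With the replicate block 0 of the 12 probe sets and 1 window gene (Casp1) passed in the Casp1-/- contrast.

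In ASC-/- minus WT, 0 of the 12 probe sets and 0 window genes passed by limma under every alternative. Over all probe sets 11 passed there, from 4 to 12 under the alternatives. Differences that changed sign, none past the threshold, were S1pr2 with the replicate block (0.022) and with an array left out (-0.32 to 0.36), Dnmt1 with the spike-in block (-0.021) and with an array left out (-0.021 to 0.28), Fat3 with an array left out (-0.047 to 0.62) and Arhgap42 with an array left out (-0.10 to 0.086). The number of arrays and the distance from background limit what could be seen for Cfap300, Fat3 and the weaker probe sets of Pdgfd, Arhgap42 and Mre11a.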
